A study of Mus musculus with 16 samples.

Results

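The kidneys of IRR knockout mice that drank sodium bicarbonate were compared with those of IRR knockout mice that drank water, with 4 RNA libraries in each group. These 8 libraries, taken by their genotype and treatment labels, were part of the 16 in the series, and every gene in the table was examined. All animals were female C57BL/6 mice aged 2 to 3 months. The knockout groups, labelled IRR (-/-), received either plain water or water with 250 mM NaHCO3 at pH 8.5 for 7 days, and all mice fasted for 12 h with free access to their drink. The other 8 libraries came from wild-type mice of the same strain, sex and age on the same 2 drinks, and are used here only beside the knockout values. Each animal gave 1 library, from a slice of 3 mm through the mid kidney that holds many cell types. The labels do not say which part of the gene was removed, in which cells, or whether the mice were littermates of the wild type.

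IRR, the insulin receptor-related receptor encoded by Insrr, is a receptor tyrosine kinase that is activated when the fluid outside the cell turns alkaline. In the kidney it is known from type B intercalated cells of the collecting duct, which secrete bicarbonate through the exchanger pendrin (Slc26a4), while type A intercalated cells secrete acid through a vacuolar proton pump. The proximal tubule, upstream of both, recovers filtered bicarbonate, makes ammonia from glutamine, and moves citrate, other dicarboxylates and organic anions between blood, cell and urine. The comparison asks how a kidney without IRR answers an alkali load.

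Insrr itself was still read in every knockout library. Values are RPKM, reads scaled by transcript length and by the total of the library, and are listed for replicates 1 to 4. Insrr stood at 3.43, 3.62, 4.11 and 3.338 RPKM on water and at 3.68, 3.31, 3.71 and 3.61 RPKM on bicarbonate. The groups overlapped, and the log2 difference, bicarbonate minus water, was -0.01 ± 0.13 (SE, adjusted p by limma = 0.995). Since the removed part of the gene is not given, these reads do not check the loss of the protein. The depth of the libraries is unknown, because the table holds no counts. The median RPKM was 8.44 to 8.53 on water and 8.62 to 8.78 on bicarbonate. Between 132 and 138 genes were listed at 0 on water, and between 105 and 121 on bicarbonate. The summed RPKM was 2730080 to 2927110 on water and 2415150 to 2727970 on bicarbonate. None of these measures overlapped between the drinks, and their part in the differences below was not tested. The correlation of log2 values across genes was 0.957 to 0.970 within a group and 0.958 to 0.965 between the groups.

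The genes on which the comparison turned are shown first by their promoters, as a reader may wish to see the sequence beside the response. The windows hold 250 bases before and 50 bases after a RefSeq start site in GRCm38.p6, 5′ to 3′ on the strand of the gene. Slc13a3, Spc25 and Sh3bp5l passed the test, Slc22a6 and Slc22a8 are organic anion transporters of the same tubule segment as Slc13a3, and Hmgcs1 had the smallest p among the cholesterol genes. Capitals mark 5 motifs, which were chosen with these sequences in view and searched on both strands: the E-box CACGTG, the CCAAT box CCAAT, the CHR element TTTGAA known from cell cycle genes, the half-site GTTAAT of HNF1, and the core TCACCCCAC of a sterol regulatory element. In the order of that list they occur in 7.15%, 37.4%, 17.9%, 7.10% and 0.551% of all 32851 promoter windows of this length.
Slc13a3, chr2:165473148-165473447, minus strand: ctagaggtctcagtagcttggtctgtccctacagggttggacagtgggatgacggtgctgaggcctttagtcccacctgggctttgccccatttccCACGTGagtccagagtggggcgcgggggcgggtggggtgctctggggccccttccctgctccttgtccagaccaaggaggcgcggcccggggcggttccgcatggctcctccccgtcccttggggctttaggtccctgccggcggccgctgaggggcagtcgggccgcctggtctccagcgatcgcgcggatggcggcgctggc
Spc25, chr2:69206164-69206463, minus strand: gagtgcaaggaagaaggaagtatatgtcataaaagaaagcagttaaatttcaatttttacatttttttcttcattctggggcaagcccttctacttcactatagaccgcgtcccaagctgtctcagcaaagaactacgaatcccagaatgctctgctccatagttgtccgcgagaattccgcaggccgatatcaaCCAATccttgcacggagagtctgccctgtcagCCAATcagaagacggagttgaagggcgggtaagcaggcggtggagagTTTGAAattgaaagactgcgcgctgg
Sh3bp5l, first of 2 start sites, chr11:58330457-58330756, plus strand: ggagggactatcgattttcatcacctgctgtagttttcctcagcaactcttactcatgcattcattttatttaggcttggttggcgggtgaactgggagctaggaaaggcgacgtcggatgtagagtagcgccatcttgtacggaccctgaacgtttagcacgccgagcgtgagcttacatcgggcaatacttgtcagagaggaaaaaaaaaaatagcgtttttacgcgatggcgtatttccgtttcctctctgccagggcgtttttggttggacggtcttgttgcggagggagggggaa
Slc22a6, chr19:8617746-8618045, plus strand: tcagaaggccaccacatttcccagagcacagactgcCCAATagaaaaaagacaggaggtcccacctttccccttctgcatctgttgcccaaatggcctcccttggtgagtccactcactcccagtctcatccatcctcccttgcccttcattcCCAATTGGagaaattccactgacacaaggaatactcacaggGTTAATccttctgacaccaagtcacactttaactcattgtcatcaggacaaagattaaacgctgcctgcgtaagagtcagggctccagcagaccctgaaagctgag
Slc22a8, chr19:8592932-8593231, plus strand: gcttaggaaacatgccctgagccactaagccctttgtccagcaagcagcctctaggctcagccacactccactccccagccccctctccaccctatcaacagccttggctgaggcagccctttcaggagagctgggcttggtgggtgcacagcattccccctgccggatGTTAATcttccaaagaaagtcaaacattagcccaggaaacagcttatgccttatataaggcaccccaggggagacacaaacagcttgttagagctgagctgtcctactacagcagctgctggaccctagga
Hmgcs1, chr13:119690101-119690400, plus strand: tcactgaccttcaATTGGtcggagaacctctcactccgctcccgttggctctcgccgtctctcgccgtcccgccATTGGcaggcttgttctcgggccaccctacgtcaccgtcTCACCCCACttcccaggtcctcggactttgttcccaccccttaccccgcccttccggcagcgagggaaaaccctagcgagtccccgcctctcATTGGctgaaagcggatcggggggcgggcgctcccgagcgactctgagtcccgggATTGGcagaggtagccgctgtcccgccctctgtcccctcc
The window of Slc13a3 held an E-box that began 154 bases before the start site. That of Spc25 held 2 CCAAT boxes, at 55 and 23 bases before the start, and a CHR element 25 bases after it. Slc22a6 and Slc22a8 each had the HNF1 half-site, at 56 and 81 bases before the start, and Slc22a6 also had CCAAT boxes on both strands, of which a pair overlap. Hmgcs1 had the sterol element 137 bases before the start and 4 CCAAT boxes on the other strand. None of the 5 motifs was in either window of Sh3bp5l. A match describes these letters only and does not show that a factor binds there.

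Few genes differed past the threshold between bicarbonate and water in the knockout kidney. Of 12943 genes tested, 3 passed an adjusted p of 0.05 (0.0232%): Sh3bp5l was higher (0.00773%), and Slc13a3 and Spc25 were lower (0.0155%). At an unadjusted p under 0.05, 513 genes were higher (3.96%) and 521 lower (4.03%), 7.99% of the genes together. All 4 libraries on bicarbonate lay above all 4 on water for 352 genes (2.72%) and below them for 380 (2.94%), 5.66% in all. The median log2 difference of all genes tested was 0.01.

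Slc13a3 encodes the sodium-dependent dicarboxylate transporter NaDC3, which carries citric acid cycle intermediates such as succinate and alpha-ketoglutarate into proximal tubule cells from the blood side. It was read at 304, 321, 300.2 and 272 RPKM on water and at 188, 193, 197 and 175 RPKM on bicarbonate. Every library on bicarbonate lay below every library on water. It fell by 0.67 ± 0.08 on the log2 scale (SE, adjusted p by limma = 0.00503), from 299 ± 20.3 to 188 ± 9.56 RPKM (SD, n = 4 each). The fall kept its call with each knockout library left out in turn. The 16 markers of the proximal tubule had a median log2 difference of -0.12, with 1 called lower, which is Slc13a3 itself. At an unadjusted p under 0.05, 3 were lower, where 4.03% of all genes were, and 0 higher. These 3 were Slc13a3, Slc22a6 and Slc22a8, which are counted again among the organic anion transporters below. The median of the 16 markers was 0.00 with quantile normalization. It ran from -0.22 to -0.07 with a knockout library left out, at the ends without water replicates 2 and 4. Their summed level ran from 19579 to 32573 RPKM on water and from 18240 to 23876 RPKM on bicarbonate, so the groups overlapped, and their part in the fall was not tested. In a slice of whole tissue, fewer cells of a type and less RNA per cell cannot be told apart. Slc13a3 overlaps the antisense gene Gm14437, and the use of strand in the counting is not given.

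Spc25 encodes a subunit of the NDC80 complex, which ties kinetochores to spindle microtubules in mitosis. Its values were 61.2, 55.3, 55.0 and 51.8 RPKM on water and 32.5, 31.0, 33.7 and 33.1 RPKM on bicarbonate. The groups lay far apart and the bicarbonate libraries were close together. Spc25 fell by 0.77 ± 0.11 on the log2 scale (SE, adjusted p by limma = 0.0258), from 55.8 ± 3.90 to 32.6 ± 1.18 RPKM (SD, n = 4 each). The call rested on most libraries, as it was kept without water replicate 4 and was lost without each of the other 7, at adjusted p from 0.0577 to 0.162.

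Sh3bp5l encodes a relative of SH3BP5, and both proteins are known as exchange factors that load the small GTPase Rab11, a regulator of recycling endosomes. It was read at 5.34, 5.25, 5.12 and 5.45 RPKM on water and at 12.6, 16.0, 9.43 and 15.7 RPKM on bicarbonate. The water libraries were nearly equal, while the bicarbonate libraries were higher and more spread. The log2 change was 1.30 ± 0.14 (SE, adjusted p by limma = 0.00227), from 5.29 ± 0.140 to 13.4 ± 3.08 RPKM (SD, n = 4 each). The call was kept with each knockout library left out in turn, and was lost in a fit of the 8 knockout libraries alone, at adjusted p = 0.069. Its paralog Sh3bp5 was at 45.0 ± 2.39 and 41.9 ± 3.57 RPKM (SD, n = 4 each), with a log2 difference of -0.10 ± 0.13. Of the 14 genes of the SH3BP5 and Rab11 list, Sh3bp5l was the member at an unadjusted p under 0.05, and the list's median was 0.02.

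**Figure D1:**
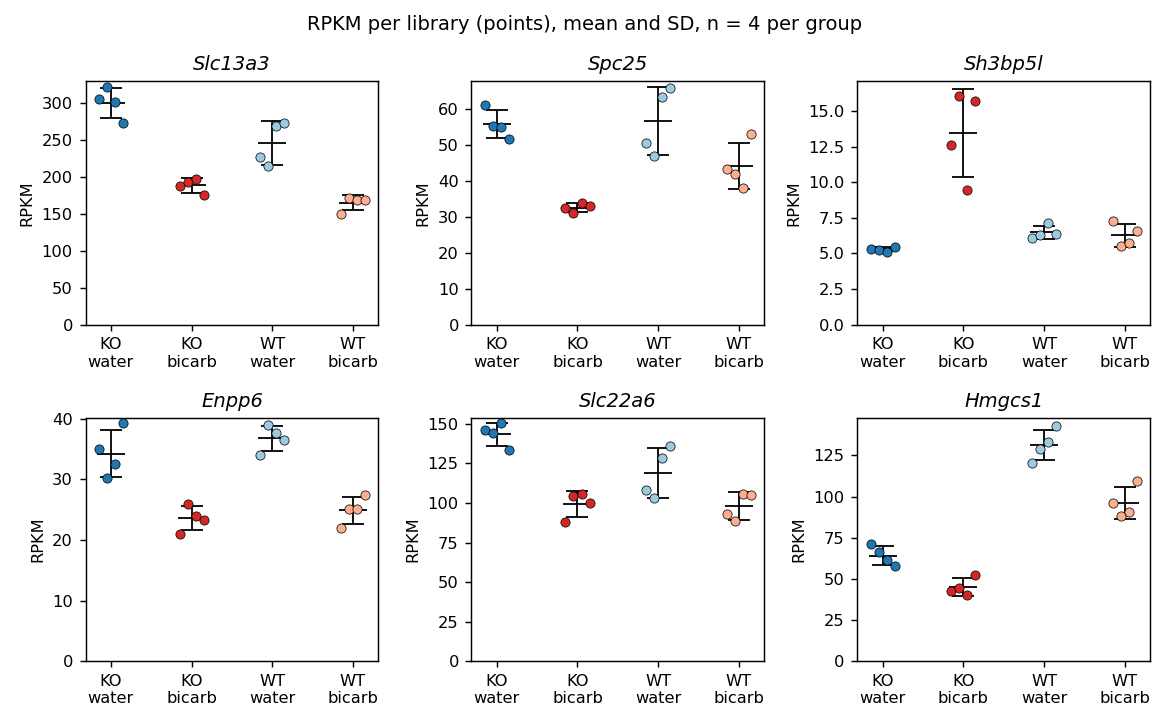
RPKM of 6 genes in each library by genotype and drink, with a point per library and lines for the mean and SD of 4 libraries. In the knockout (KO) the bicarbonate points of Slc13a3, Spc25, Enpp6, Slc22a6 and Hmgcs1 all lie below the water points and those of Sh3bp5l all lie above. For Sh3bp5l the wild-type (WT) points of both drinks lie between 5.54 and 7.29 RPKM.

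Other transporters of organic anions stood lower beside Slc13a3, without passing the threshold. The list of organic anion, dicarboxylate and sulfate transport had 18 tested genes, of which 14 had negative and 4 positive differences, with a median of -0.20 against 0.01 for all genes. Of these, 6 were lower at an unadjusted p under 0.05, where 4.03% of all genes were, and 0 were higher. In 4 the groups did not overlap, all lower, against 2.94% of all genes. The 6 were Slc13a3, Slc22a6, Slc22a8, Abcc4, Slc22a30 and Abcg2, and between 4 and 6 stayed at that level with each knockout library left out. Slc22a6, the organic anion exchanger OAT1 of the blood side, was at 146, 144, 150.2 and 133 RPKM on water and at 87.9, 105, 106 and 99.8 RPKM on bicarbonate. Its groups did not overlap, and the log2 difference was -0.53 ± 0.09 (SE, adjusted p by limma = 0.134). Slc22a8, the related exchanger OAT3, was at 262, 261, 259 and 234 RPKM on water and at 209, 214, 221 and 224 RPKM on bicarbonate, a smaller gap without overlap. Its log2 difference was -0.22 ± 0.05 (adjusted p = 0.301). OAT1 and OAT3 take up anions in exchange for dicarboxylates, which NaDC3 brings into the same cells.

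The transporters of the apical side given next, all from the same list, overlapped between the drinks. Abcc4, the efflux pump MRP4, was at 51.5 ± 9.50 RPKM on water and 39.9 ± 4.58 RPKM on bicarbonate (SD, n = 4 each), with overlapping groups. Abcg2, the urate pump BCRP, was at 275 ± 28.2 and 241 ± 10.3 RPKM, also with overlap. Slc13a2, the citrate transporter NaDC1 of the brush border, was at 29.5, 40.6, 42.2 and 20.8 RPKM on water and at 29.1, 26.2, 29.7 and 28.6 RPKM on bicarbonate. Here the water libraries lay on both sides of the bicarbonate ones, and the log2 difference was -0.17 ± 0.23 (SE, adjusted p by limma = 0.897). Slc13a1, the sulfate transporter, was at 571, 261, 226 and 636 RPKM on water and at 248.6, 232, 236 and 273 RPKM on bicarbonate. Water replicates 1 and 4 were high and the others were at the level of the bicarbonate group, so the difference of -0.63 ± 0.37 did not pass (adjusted p = 0.704).

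Transporter and detoxifying enzyme families were counted too, 5 in all, each chosen after its values were seen. In the SLC22 family of organic ion transporters, 23 genes were tested, 7 were lower and 1 higher at an unadjusted p under 0.05, against 4.03% and 3.96% of all genes. Of the 7, Slc22a6, Slc22a8 and Slc22a30 were already counted in the organic anion list. All 7 with groups that did not overlap were lower, against 2.94% of all genes. The median was -0.14, and -0.25 without bicarbonate replicate 4. Slc22a22, a prostaglandin transporter of mouse kidney, was at 38.1, 55.6, 59.4 and 26.01 RPKM on water and at 16.2, 15.9, 16.4 and 13.6 RPKM on bicarbonate. The water libraries were spread and all above the bicarbonate ones, with a log2 difference of -1.45 ± 0.30 (SE, adjusted p by limma = 0.209). Slc22a2, the cation transporter OCT2, was at 82.0 ± 2.80 and 62.4 ± 9.18 RPKM (SD, n = 4 each), without overlap. Slc22a28, Slc22a30 and Slc22a3 had differences of -0.83, -1.07 and -0.89, and Slc22a3 was at or below 1.26 RPKM in every knockout library.

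The carboxylesterase 1 family, enzymes that cleave ester drugs and lipids, had 4 tested members with a median of -0.73. All 4 were lower at an unadjusted p under 0.05, where 4.03% of all genes were. Ces1g was at 3.76, 1.45, 3.67 and 5.28 RPKM on water and at 1.12, 0.800, 0.555 and 1.43 RPKM on bicarbonate. The lowest water library, replicate 2, nearly touched the highest bicarbonate library. The log2 difference was -1.70 ± 0.36 (SE, adjusted p by limma = 0.209) and passed without water replicate 2 (adjusted p = 0.0371). Ces1e and Ces1d had differences of -0.79 and -0.56 without overlap, and Ces1f of -0.67 with overlap. The NAT8 family, named for an acetyltransferase that completes mercapturic acids, had 8 tested genes. Of these, 4 were lower at that p, against 4.03% of all genes, and without overlap, against 2.94%. In all, 7 had a negative difference, and the median was -0.50. Nat8f5 was at 13.7, 23.4, 27.4 and 14.9 RPKM on water and at 7.47, 5.99, 4.38 and 3.28 RPKM on bicarbonate. Nat8 was at 60.3 ± 9.65 and 32.3 ± 6.03 RPKM (SD, n = 4 each), Nat8f1 at 170 ± 9.24 and 115 ± 11.5 RPKM, and Nat8f6 at 110.0 ± 9.01 and 60.2 ± 20.2 RPKM. The Ces1 and Nat8 genes are close copies of each other, so how the authors' counting shared reads among them is uncertain. The other families were the flavin-containing monooxygenases and the alpha and mu glutathione S-transferases. At an unadjusted p under 0.05, 3.96% of all genes were higher and 4.03% lower. Of the 4 monooxygenases 1 was higher and 1 lower at that p, with a median of -0.12. Of the 10 transferases 2 were lower and 0 higher, with a median of -0.26.

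At the brush border, the list of 16 genes for microvilli and endocytosis had 3 members lower at an unadjusted p under 0.05, where 4.03% of all genes were, and 0 higher. It had 13 negative differences and a median of -0.05, or -0.01 with quantile normalization, and the count of 3 ranged from 1 to 3 with each knockout library left out. Pdzk1, the scaffold that holds transporters at the brush border, was at 322, 358, 370.3 and 389 RPKM on water and at 310, 302, 301 and 270.2 RPKM on bicarbonate. The groups did not overlap, with a log2 difference of -0.28 ± 0.07 (SE, adjusted p by limma = 0.319). Slc9a3r1, the scaffold NHERF1, was at 80.9 ± 2.02 and 71.6 ± 4.60 RPKM (SD, n = 4 each), without overlap. Among 17 amino acid and peptide transporters, Slc6a20b alone was lower at that p, at 65.3, 66.4, 70.1 and 66.7 RPKM on water and 58.2, 58.6, 49.8 and 59.5 RPKM on bicarbonate, and the median was 0.07. Among 12 glucose and monocarboxylate transporters, 2 were higher and 1 lower at that p, against 3.96% and 4.03% of all genes. Slc5a11, an inositol and glucose transporter, was at 23.8, 17.9, 25.1 and 27.4 RPKM on water and at 33.3, 38.1, 99.0 and 22.1 RPKM on bicarbonate, where replicate 3 stood far above the rest and replicate 4 lay inside the water range.

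Genes of acid secretion and of the intercalated cells were next to the transporters. The list of V-ATPase subunits and other genes shared by intercalated cells had 18 tested members, of which 16 had negative differences. At an unadjusted p under 0.05, 8 were lower, against 4.03% of all genes, and 0 higher. All 5 without overlap were lower, against 2.94% of all genes. None passed the adjusted threshold, the median was -0.17, and the count of 8 ranged from 3 to 8 with each knockout library left out. Car2, the cytosolic carbonic anhydrase that hydrates carbon dioxide in tubule cells, was at 251, 262, 273 and 234 RPKM on water and at 193, 206, 198 and 193 RPKM on bicarbonate. The groups did not overlap, and the log2 difference was -0.37 ± 0.07 (SE, adjusted p by limma = 0.152). Atp6v1g3, the kidney form of the V-ATPase G subunit, was at 39.4, 34.3, 28.3 and 34.0 RPKM on water and at 24.7, 26.1, 25.8 and 23.6 RPKM on bicarbonate. Atp6v1b1, the intercalated cell form of the pump's B subunit, was at 47.1 ± 3.66 and 40.9 ± 1.69 RPKM (SD, n = 4 each) with overlap, and Atp6v1a and Atp6v1f had differences of -0.20 and -0.23 without overlap. The summed level of the 18 genes was 1677 to 1766 RPKM on water and 1503 to 1623 RPKM on bicarbonate, a narrow gap between the groups.

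The markers that tell the types of intercalated cell apart gave no such gap. The 5 tested markers of type A cells had a median of -0.11, or 0.06 without water replicate 1, with 2 positive and 3 negative differences and 0 at an unadjusted p under 0.05. Their summed level was 54.7 to 89.7 RPKM on water and 56.9 to 74.3 RPKM on bicarbonate. The 5 tested markers of type B cells, among them the knocked-out gene Insrr itself, had a median of -0.28, or -0.11 without water replicate 1. Of these, 1 was higher and 1 lower at that p, against 3.96% and 4.03% of all genes, with 0 to 2 lower when a knockout library was left out. Their summed levels were 40.9 to 46.2 RPKM on water and 36.2 to 43.5 RPKM on bicarbonate. Slc26a4, pendrin, was at 15.8, 21.3, 21.01 and 19.0 RPKM on water and at 17.8, 15.1, 15.1 and 15.0 RPKM on bicarbonate. Bicarbonate replicate 1 lay inside the water range, and the log2 difference was -0.28 ± 0.11 (SE, adjusted p by limma = 0.546). Slc4a8, a sodium-driven chloride and bicarbonate exchanger, had a difference of the other sign, at 2.12, 2.63, 2.85 and 3.41 RPKM on water and 4.90, 4.14, 4.67 and 4.87 RPKM on bicarbonate. Its groups did not overlap, and its log2 difference was 0.75 ± 0.19 (adjusted p = 0.301).

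Other genes of bicarbonate transport were split. The 18 tested genes for bicarbonate and proton transport with the carbonic anhydrases had a median of 0.02. At an unadjusted p under 0.05, 2 were higher and 2 lower, against 3.96% and 4.03% of all genes. Car4, the membrane carbonic anhydrase of the tubule lumen, was at 59.5, 44.9, 51.5 and 73.9 RPKM on water and at 80.9, 92.1, 79.2 and 76.7 RPKM on bicarbonate. It lay opposite to Car2, with all bicarbonate libraries above the water ones and a log2 difference of 0.54 ± 0.16 (SE, adjusted p by limma = 0.376). The 17 genes of ammonia production, ammonia transport and gluconeogenesis had 15 negative differences and a median of -0.21. At that p 3 were lower, where 4.03% of all genes were, and 0 higher, and the count of 3 ranged from 1 to 6 with each knockout library left out. Rhbg, the ammonia channel of the blood side of the collecting duct, was at 14.7, 12.2, 9.53 and 11.7 RPKM on water and at 7.35, 7.33, 8.30 and 8.55 RPKM on bicarbonate, without overlap. Pcx, pyruvate carboxylase, was at 135, 75.6, 67.7 and 121 RPKM on water and at 75.9, 45.4, 46.7 and 50.6 RPKM on bicarbonate. Water replicates 1 and 4 were high and the groups overlapped, with a difference of -0.84 ± 0.30 (adjusted p = 0.497). Fbp1, the gluconeogenic fructose bisphosphatase, was at 474 ± 25.7 and 404 ± 53.4 RPKM (SD, n = 4 each), with overlap.

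Enzymes of the citric acid cycle, which use the substrates that NaDC3 imports, had small negative differences. Of 18 tested, 16 were negative and 2 positive, 5 were lower at an unadjusted p under 0.05 (4.03% of all genes) and 0 higher, and 4 were lower without overlap (2.94% of all genes). The median was -0.15, the lowest difference -0.23, and none passed the adjusted threshold. Dlst, a subunit of the alpha-ketoglutarate dehydrogenase, was at 80.7, 72.2, 78.2 and 72.5 RPKM on water and at 66.8, 63.0, 66.1 and 65.7 RPKM on bicarbonate, without overlap. Idh3b had a difference of -0.22 without overlap, and Suclg1 and Sdhb of -0.20 and -0.16 with overlap. The median was -0.08 with quantile normalization and ran from -0.19 to -0.12 with each knockout library left out, where the count of 5 ranged from 2 to 7.

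The 13 mitochondrially encoded genes all had negative differences, and 3 were lower at an unadjusted p under 0.05, where 4.03% of all genes were. Their median was -0.13, but 0.00 with quantile normalization and -0.01 after correction for length and GC content. They made up 83.3 to 84.9% of the summed RPKM on water and 82.6 to 84.3% on bicarbonate. mt-Nd6, mt-Nd5 and mt-Nd4, subunits of complex I, had differences of -0.20, -0.18 and -0.17. With quantile normalization mt-Nd5 was at 0.06 and mt-Nd4 at 0.00. Of 48 tested proteins of the large mitochondrial ribosome subunit, 4 were lower at that p, where 4.03% of all genes were, and 0 higher. That count ranged from 2 to 5 with each knockout library left out, and the median was -0.07. Mrpl28 was at 32.9, 30.0, 28.6 and 22.4 RPKM on water and at 17.2, 18.9, 18.9 and 11.0 RPKM on bicarbonate, where replicate 4 was the lowest of each group. Its log2 difference was -0.80 ± 0.16 (SE, adjusted p by limma = 0.158).

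Markers of the principal cells of the collecting duct had positive differences, none past the adjusted threshold. Principal cells reabsorb sodium and water under aldosterone and vasopressin. All 7 tested markers had positive differences, 3 were higher at an unadjusted p under 0.05 (3.96% of all genes), 2 were higher without overlap (2.72% of all genes), and the median was 0.29. The count of 3 ranged from 1 to 5 with each knockout library left out. Aqp2, the water channel under vasopressin, was at 104, 106, 116 and 107 RPKM on water and at 192, 147, 124 and 125 RPKM on bicarbonate. Replicate 1 was the highest of the bicarbonate libraries, which all lay above those on water, and the log2 difference was 0.42 ± 0.22 (SE, adjusted p by limma = 0.664). Scnn1g, a subunit of the epithelial sodium channel, was at 13.6, 14.1, 14.7 and 14.2 RPKM on water and at 16.6, 18.1, 16.9 and 17.3 RPKM on bicarbonate. The groups were tight and apart, with a log2 difference of 0.29 ± 0.08 (adjusted p = 0.349). Avpr2, the vasopressin receptor, was at 6.87 ± 1.75 and 10.8 ± 2.44 RPKM, and Hsd11b2, which shields the mineralocorticoid receptor from glucocorticoid, at 80.4 ± 9.40 and 92.1 ± 3.46 RPKM (SD, n = 4 each), both with overlap. The summed level of the 7 markers was 280 to 332 RPKM on water and 334 to 439 RPKM on bicarbonate, with the highest value in replicate 1.

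The 4 markers of the thick ascending limb had a median of 0.18, with 3 positive and 1 negative difference and 0 at an unadjusted p under 0.05. Their summed level was 1161 to 1369 RPKM on water and 1337 to 1549 RPKM on bicarbonate, with overlap. Slc12a1, the sodium, potassium and chloride cotransporter NKCC2, was at 315, 398, 372 and 327 RPKM on water and at 426, 406, 403 and 442 RPKM on bicarbonate, without overlap. Egf, made in the distal tubule, was at 317, 316, 295 and 292 RPKM on water and at 368, 357, 357 and 384 RPKM on bicarbonate, also without overlap. Neither passed the adjusted threshold, at 0.626 and 0.641, and the other 2 markers, Umod and Cldn16, had overlapping groups with differences of 0.11 and -0.04. The wider list of 22 genes for sodium chloride transport of the thick limb and distal tubule had a median of 0.06. At an unadjusted p under 0.05, 3 were higher and 1 lower, against 3.96% and 4.03% of all genes. Cnnm2, a magnesium handling protein of the distal tubule, was at 6.42 ± 0.650 and 7.79 ± 0.156 RPKM (SD, n = 4 each) without overlap, and was the 1 of 23 genes of calcium, magnesium and phosphate handling at that p.

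**Figure D2:**
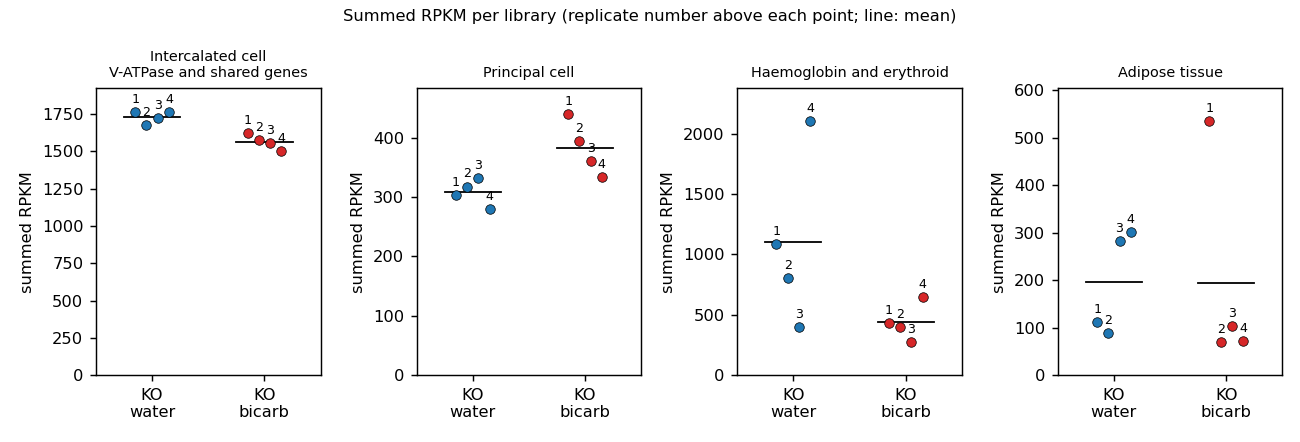
Summed RPKM of 4 marker lists in each knockout library, with replicate numbers above the points and a line for the mean of 4. The V-ATPase list lies lower and the principal cell list higher on bicarbonate without overlap, while haemoglobin is high in water replicate 4 and adipose genes are high in bicarbonate replicate 1.

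The other mitotic genes were read beside Spc25. Of 28 listed genes of the kinetochore and spindle, 22 were in the table and 18 passed the filter on low values. Among these 18, 2 were lower and 1 higher at an unadjusted p under 0.05, against 4.03% and 3.96% of all genes. The median was -0.08, or 0.03 without water replicate 4. Spc24, the partner of Spc25 in the same complex, was at 1.18, 1.52, 1.91 and 0.954 RPKM on water and at 1.57, 0.617, 1.34 and 0.657 RPKM on bicarbonate. In RPKM, which is scaled by transcript length, Spc25 was thus far above its partner in both groups. Knstrn, a spindle protein, was at 0.589, 0.941, 0.945 and 1.005 RPKM on water and at 0.210, 0.448, 0.186 and 0.178 RPKM on bicarbonate, with a log2 difference of -1.48 ± 0.28 (SE, adjusted p by limma = 0.152) at levels near the filter. Dsn1, a subunit of the MIS12 complex, had a positive difference that did not pass, at 2.20 ± 0.636 and 3.60 ± 0.472 RPKM (SD, n = 4 each). Of 19 tested genes of the cell cycle and DNA replication, 0 were at an unadjusted p under 0.05, 15 had negative differences, and the median was -0.28. With a knockout library left out the median ran from -0.29 to -0.11, the latter without water replicate 4, and 0 to 3 genes were lower at that p.

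Genes of choline and sterol metabolism gave 2 of the smallest p-values. Enpp6, a choline phosphodiesterase that releases phosphocholine from lipid remnants, was at 35.0, 30.2, 32.5 and 39.2 RPKM on water and at 21.1, 25.9, 24.0 and 23.3 RPKM on bicarbonate. The groups did not overlap, and the log2 difference of -0.53 ± 0.09 (SE, adjusted p by limma = 0.105) passed after correction for transcript length and GC content (adjusted p = 0.0249). The 17 genes of choline, betaine and phosphodiester metabolism had a median of -0.01. At an unadjusted p under 0.05, 3 were lower and 2 higher, against 4.03% and 3.96% of all genes. Hmgcs1, which makes the precursor of mevalonate, was at 71.1, 66.5, 61.4 and 57.9 RPKM on water and at 42.8, 44.2, 40.3 and 52.6 RPKM on bicarbonate. The groups did not overlap, with a log2 difference of -0.52 ± 0.09 (adjusted p = 0.141). The rest of the cholesterol list did not follow it as a group: of 27 tested genes, 13 had positive and 14 negative differences, 2 were higher and 2 lower at that p, and the median was -0.02. Srebf1, a regulator of lipid synthesis, was at 8.74 ± 0.951 and 11.8 ± 0.854 RPKM, opposite to Hmgcs1, and Nsdhl, an enzyme late in cholesterol synthesis, at 20.3 ± 2.54 and 16.7 ± 0.592 RPKM (SD, n = 4 each). Enpp6 and Hmgcs1 each overlap an antisense gene, whose reads cannot be told apart from theirs without strand.

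The insulin family, to which IRR belongs, had 25 tested genes of insulin and IGF signalling, with 21 positive differences. Their median was 0.08, or 0.02 after correction for transcript length and GC content. At an unadjusted p under 0.05, 2 were higher, where 3.96% of all genes were, and 0 lower. Both were binding proteins of the growth factors. Igfbp3 was at 72.6, 62.9, 72.1 and 77.5 RPKM on water and at 89.2, 92.8, 104 and 96.1 RPKM on bicarbonate. The groups did not overlap, and the log2 difference was 0.42 ± 0.11 (SE, adjusted p by limma = 0.319). Igfbp1 was at 17.0, 18.2, 16.2 and 12.3 RPKM on water and at 37.0, 23.6, 18.9 and 19.5 RPKM on bicarbonate, with replicate 1 well above the other 3. Igf1r, the IGF1 receptor, ran from 25.0 to 31.1 RPKM on water and from 29.7 to 32.8 RPKM on bicarbonate, with overlap.

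**Figure D3:**
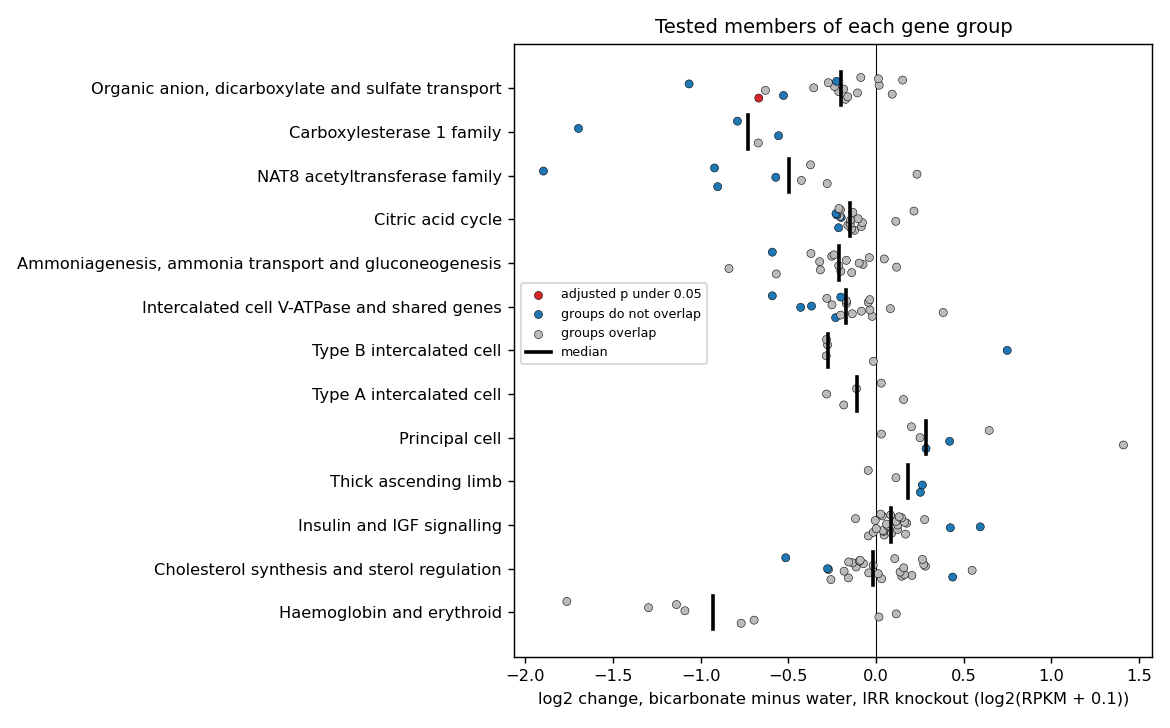
Log2 change, bicarbonate minus water, of each tested member of 13 gene groups in the knockout, with a bar at the median of a group. Red marks the adjusted p under 0.05 (Slc13a3), blue marks groups that do not overlap and grey marks overlap. The medians of the organic anion transport, ammonia, V-ATPase and citric acid cycle groups lie below 0 and those of principal cells and the thick ascending limb above it.

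Among genes higher without overlap, those with the smallest p other than Sh3bp5l did not pass the threshold. The 12 genes with the smallest p among those higher without overlap and with a regular symbol and a mean of at least 1 RPKM in the higher group were Sh3bp5l, St5, Arhgef2, Dkk3, Eef1akmt2, Zbtb49, Dpf2, Btc, Fam20a, Cbx8, Ints13 and Ndrg2. Apart from Sh3bp5l, their adjusted p ran from 0.209 to 0.301. Arhgef2, the exchange factor GEF-H1 for the GTPase RhoA, was at 19.6, 18.9, 16.3 and 18.6 RPKM on water and at 26.3, 23.4, 26.1 and 23.0 RPKM on bicarbonate. Dkk3, a secreted protein of the Dickkopf family, was at 5.62, 5.01, 6.52 and 6.14 RPKM on water and at 8.60, 9.39, 8.44 and 8.56 RPKM on bicarbonate. Btc, betacellulin, a ligand of the EGF receptor, was at 3.41, 3.84, 3.22 and 2.41 RPKM on water and at 4.60, 5.90, 4.46 and 4.88 RPKM on bicarbonate. Fam20a, a secretory pathway pseudokinase, was at 1.76 ± 0.243 and 3.13 ± 0.604 RPKM (SD, n = 4 each). On the lower side the same rule, which leaves out Knstrn for its low level, gave Slc13a3, Spc25, Enpp6, Slc22a6, Hmgcs1, Car2, Naa38, Mrpl28, Id2, Ascc1, Slc22a22 and Ces1g. Id2, an inhibitor of basic helix-loop-helix factors, was at 248, 264, 261 and 274 RPKM on water and at 203, 191, 210.3 and 184 RPKM on bicarbonate, a difference of -0.41 ± 0.08 (SE, adjusted p by limma = 0.209).

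Lists of other programmes held no called gene. Over all genes, 3.96% were higher and 4.03% lower at an unadjusted p under 0.05. Of 23 tested genes of fatty acid oxidation and PPAR alpha targets, 1 was lower at an unadjusted p under 0.05, Acaa1b, a peroxisomal thiolase, at 188, 127, 124 and 151 RPKM on water and 98.2, 96.2, 97.8 and 94.5 RPKM on bicarbonate. Of 22 interferon response genes, 2 were lower at that p, and of 13 antigen presentation genes 1 was, Tap1, the peptide transporter, at 6.09 ± 0.916 and 3.59 ± 0.885 RPKM (SD, n = 4 each). Among 18 chaperones, Hspa5 and Hsp90b1 of the endoplasmic reticulum were higher at that p, with overlapping groups. The 19 clock genes and 17 immediate early genes had 0 at that p, with medians of -0.09 and -0.09.

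The summed markers of blood and of fat varied more between libraries than those of any tubule segment. The summed level of 8 haemoglobin and erythroid genes was 1087, 805, 403 and 2107 RPKM on water and 433, 404, 273 and 648 RPKM on bicarbonate. Water replicate 4 was the highest, the groups overlapped, and the median difference was -0.93. At an unadjusted p under 0.05, 4 genes were lower, where 4.03% of all genes were, and 0 higher. That count of 4 ranged from 1 to 6 with each knockout library left out. Hba-a2 was at 402, 289, 141 and 762 RPKM on water and at 153, 130.3, 81.4 and 211 RPKM on bicarbonate, and the near-identical alpha and beta globin copies may share reads. The 5 adipose genes summed to 113, 90.0, 283 and 301 RPKM on water and to 536, 69.8, 104 and 71.8 RPKM on bicarbonate. Bicarbonate replicate 1 stood apart here, with Adipoq at 27.1 RPKM against 0.191 to 2.63 RPKM in the other 3. Cfd was listed at 0 in bicarbonate replicate 2. Of 8 adrenal markers Star was tested, at 1.94 ± 0.231 and 1.94 ± 0.152 RPKM (SD, n = 4 each). Without bicarbonate replicate 1 the adjusted p was 0.0123 for Sh3bp5l and 0.123 for Spc25, and without water replicate 4 it was 0.00575 for Sh3bp5l. The part of blood or fat in the other differences was not tested.

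The knockout response was then set beside that of wild type on the same drinks, which used other animals for both groups. Wild-type mice had 18 called genes of 12943 (0.139%). Slc13a3 was among them, with a log2 difference of -0.57 ± 0.08 (SE, adjusted p by limma = 0.0181), and the knockout response minus the wild-type response was -0.10 ± 0.12 (adjusted p = 0.844). Enpp6 (-0.56 ± 0.09, adjusted p = 0.0284), Slc22a8 (-0.30 ± 0.05, 0.0468) and Slc6a20b (-0.58 ± 0.09, 0.0212) were also called in wild type. Their responses were not shown to differ between the genotypes (adjusted p = 0.964, 0.810 and 0.551 in that order). Spc25 was at 50.6, 46.9, 63.4 and 65.8 RPKM in wild type on water and at 43.3, 41.8, 38.0 and 53.1 RPKM on bicarbonate. These groups overlapped, with a difference of -0.36 ± 0.11 (adjusted p = 0.209), but the responses of the 2 genotypes were not shown to differ (-0.41 ± 0.16, adjusted p = 0.551). Sh3bp5l was at 6.11, 6.32, 7.14 and 6.37 RPKM in wild type on water and at 7.29, 5.54, 5.71 and 6.58 RPKM on bicarbonate, with no gap between the drinks. The wild-type difference was -0.05 ± 0.14, and the response differed between the genotypes by 1.35 ± 0.20 (adjusted p = 0.0471). That call was near the threshold and held in 6 of 18 alternatives, with adjusted p from 0.00136 without knockout bicarbonate replicate 3 to 0.365 with a replicate block.

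The test of a difference between the genotypes called 2 of 12943 genes (0.0155%), with 8.19% at an unadjusted p under 0.05. The second was Gm5096, a predicted gene named here after its values were seen, which was listed at 0 in all 8 knockout libraries and in the 4 wild-type libraries on bicarbonate. As an exact 0 can be a failed estimate, its knockout response is not known. Of the 12 lower genes chosen in the knockout, 10 also had negative differences in wild type, where 51.4% of all genes did, and the medians were -0.53 and -0.34 (knockout and wild type). Naa38 and Mrpl28 were the exceptions, at 0.08 and 0.15 in wild type. Of the 12 higher genes, 9 had positive differences in wild type, where 48.6% of all genes did, with medians of 0.56 and 0.07. Both sets were chosen by their knockout values, which by itself favours larger medians in the knockout than in wild type. Fam20a had nearly equal differences, 0.79 ± 0.19 in the knockout and 0.82 ± 0.19 in wild type. Knstrn had opposite differences, -1.48 ± 0.28 and 1.06 ± 0.28, and the difference between them missed the threshold (adjusted p = 0.0520). Of the 1034 genes at an unadjusted p under 0.05 in the knockout, 617 had the same sign in wild type. Of the 1034, 208 were also at that p in wild type, where 12.0% of all genes were, and 167 of these had the same sign. The share of all genes with the same sign in both genotypes was not computed, so these sign counts have no background. Both comparisons came from a single model that shares each gene's spread, which by itself favours a small p in both. For the lists, medians in wild type were -0.13 for organic anion transport, -0.64 for the carboxylesterase 1 family and -0.70 for the NAT8 family, -0.03 for the citric acid cycle, -0.02 for the V-ATPase list and 0.11 for principal cells, and the difference of a list between genotypes was not tested.

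**Figure D4:**
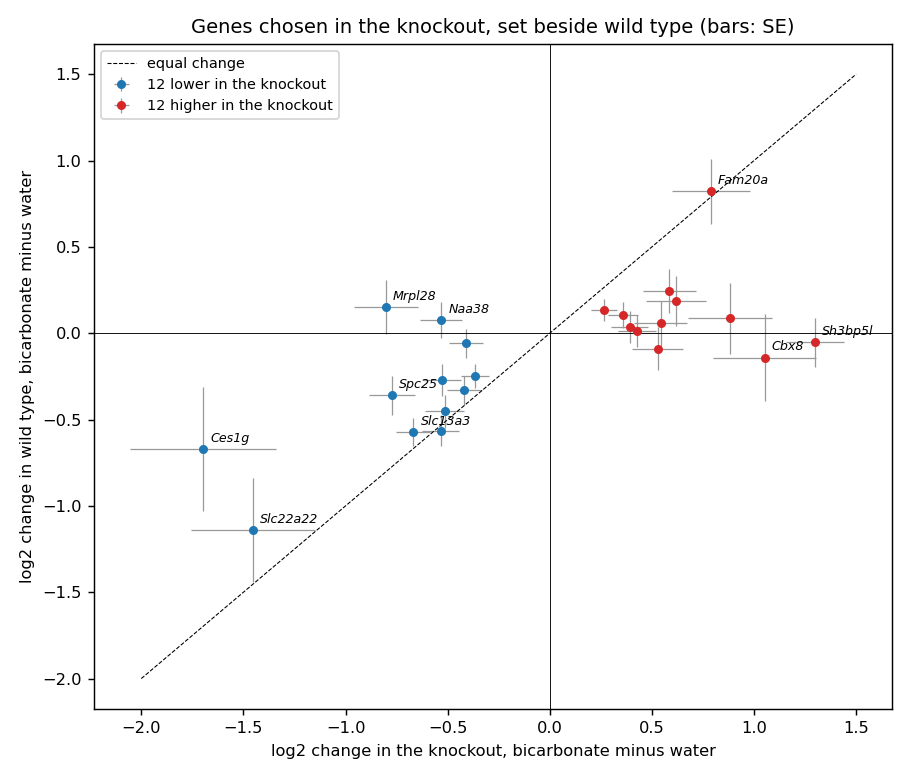
Log2 change, bicarbonate minus water, of the 12 lower and 12 higher genes chosen in the knockout (horizontal) against the change in wild type (vertical), with bars for SE and a dashed line of equal change. Of the lower genes 10 lie below 0 in wild type too, while Sh3bp5l lies near 0 there.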

How the data were processed

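The data were RNA-seq values of kidney slices from 16 mice, 4 in each of 4 groups of genotype and drink. The deposited table, made by the authors, gives RPKM per gene and library. Salmon 1.5.2, edgeR 3.34.0 and the builds GRCm39 and mm10 are named in the submitters' processing notes, with no role, so which of them gave these values is unknown. In GENCODE M21 (GRCm38), 13430 of 13430 gene IDs had a symbol and transcript length. Whole reads could not be recovered, so the depth of each library and its counting error are unknown, and an exact 0 can be a failed estimate.

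Genes with at least 0.5 RPKM in at least 4 of 16 libraries were tested, 12943 in all, and 487 were not. Fits were made in R 4.3.3 by limma 3.58.1, using log2(RPKM + 0.1), which understates changes of low genes, with trended and robust empirical Bayes, as a single model of 4 group means over 16 libraries (12 residual degrees of freedom). Tests were two-sided, with Benjamini-Hochberg adjustment over all genes tested within a comparison and a threshold of 0.05. On simulated data the procedure recovered 76% of 2-fold and 36% of 1.5-fold changes (100 genes each, of 12943), with 8 false calls.

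Called genes, Insrr, the 12 smallest p of each sign among genes without overlap, at a mean of at least 1 RPKM in the higher group and with a regular symbol, and up to 3 members per list were named. Other members of a counted list or family were named after their values were seen. A few members of the lists are not reported here. The members, the 44 lists (661 genes, 612 tested) and 5 families were chosen with earlier results of these data known, and lists are described by counts and medians with no test. Alternatives covered pseudocount, filter, normalization, variance model, array weights, replicate block, length and GC trend, and each knockout library left out.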

Additional observations from a re-analysis of the deposited data

Results flagged for a closer look

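In groups of 4 libraries, 17 of 220 had a lone library whose gap to the nearest other took up nearly all of the group's range (Dixon's test). Chance flags about 1 in 20 groups that are independent. The 220 groups share libraries, and many of their genes were chosen by their knockout values. That rate is thus no yardstick for the count of 17. Knockout bicarbonate replicate 1 was the lone library for fat genes, with Cfd at 128.1 RPKM (others 0 to 9.615), Adipoq at 27.05 (0.1914 to 2.626), Fabp4 at 325.3 (65.67 to 83.37) and the summed adipose list at 535.6 (69.77 to 103.5). The same library was high for Slc26a4 at 17.79 RPKM (14.95 to 15.12) and Ppp1r1b at 44.86 (40.43 to 40.7), and low for mt-Nd6 at 58190 (63090 to 63540). Whether its fat genes moved with these values was not tested.

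Bicarbonate replicate 2 was high for Dkk3 at 9.392 RPKM (8.437 to 8.595) and Knstrn at 0.448 (0.1784 to 0.2105), and replicate 3 low for Slc6a20b at 49.85 (58.22 to 59.48). Water replicate 1 was high for Fam20a at 2.12 RPKM (1.624 to 1.646) and Isg15 at 4.882 (2.147 to 2.309), and low for Knstrn at 0.5893 (0.9409 to 1.005). Water replicate 2 was high for Mrpl14 at 44.79 RPKM (39.16 to 39.48), replicate 3 high for Slc22a3 at 1.256 (0.362 to 0.4776), and replicate 4 low for Slc22a8 at 233.6 (258.7 to 261.9) and high for Cbx8 at 0.817 (0.3329 to 0.4127). The response of Sh3bp5l differed between the genotypes, by 1.35 ± 0.20 on the log2 scale (SE, limma adjusted p = 0.0471), and this passed in 6 of 18 alternatives.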

How the results depend on the processing

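The count of called genes in the knockout was 3, from 2 to 4 with each knockout library left out, and 0 with a replicate block, also with only the 8 knockout libraries. The numbers share no label beyond the number, and same-numbered libraries had deviations correlated at 0.01, 0.05, 2e-04 and -0.05. With the block Sh3bp5l and Slc13a3 were at adjusted p = 0.05003 and Spc25 at 0.0666. Spc25 was at 0.0617 with no trend and no robust fitting and at 0.0732 after correction for length and GC content. The count of genes whose response differed between genotypes was 2. Settings chosen after seeing the data gave 0 with a pseudocount of 0.01, 1 with a pseudocount of 1, 0 with a filter of 1 RPKM in 8 libraries, 4 with no trend and no robust fitting, 1 with array weights, 0 with the replicate block, 4 after the length and GC correction, and 1 to 3 with each knockout library left out. The fit of the 8 knockout libraries gives no such count.

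Of 105 genes, 102 kept their sign in all 20 alternatives. Insrr ran from -0.0518 to 0.0455 with each knockout library left out, positive without water replicate 3 and without bicarbonate replicate 2. mt-Nd5 turned to 0.0573 and mt-Nd4 to 0.00 with quantile normalization, and the cause was not tested. Of 49 lists and families, 32 kept the sign of their median. Depth is unknown, and 4 libraries a group recovered about 36% of simulated 1.5-fold changes, so smaller changes can be missed.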
